A study of Drosophila melanogaster with 12 samples.

Results

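Long noncoding RNAs are transcripts without a long open reading frame, and antisense RNAs are those transcribed across the opposite strand of another gene. Many of both kinds are spliced and polyadenylated like mRNA, so their introns also need the 3' splice site factor U2AF. Several well studied fly examples act and stay in the nucleus. They include the roX RNAs of dosage compensation and the nuclear form of the heat shock RNA omega. Coding transcripts, in contrast, are mostly exported. Of 14010 probe sets on an Affymetrix fly array, 24 were assigned by the platform annotation to 1 gene whose symbol starts with lncRNA: or asRNA:. They covered 21 genes, of which 15 were named as long noncoding RNAs (17 probe sets) and 6 as antisense RNAs (7 probe sets). RefSeq listed each of the 21 genes under the same symbol and in the same class. An older CG symbol, the prefix of genes once annotated as coding, was recorded for 12 of them. RefSeq holds 2450 genes with these prefixes, so the array sampled few of them, and 0 probe sets were annotated to roX1, roX2 or Hsromega.

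The arrays measured RNA from D. mel-2 cells, a fly line of embryonic origin, in 4 groups of 3. Control cells had received non-specific RNA interference (RNAi) and the other cells RNAi against U2AF50, the large subunit of U2AF, and each treatment was sampled as a cytoplasmic and a nuclear fraction. The labels of 9 samples name a hypotonic lysis and those of 3 control samples (cytoplasm replicates 1 and 2, nucleus replicate 1) name none. Whether the 3 replicates of a group were grown apart is not stated, and each p-value therefore reflects variation among the arrays at hand, part of which can be technical. Each array was scaled to the same total, so a value is a share of its own fraction's RNA, and in bulk RNA fewer cells of a type and less RNA per cell cannot be told apart.

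Median intensities of the arrays lay between 334 and 497. The target of the RNAi, U2af50, fell in the depleted cytoplasm (log2 change -1.75, SE 0.26, limma adjusted p = 0.0012) and had a change of 0.21 in the nucleus (adjusted p = 0.7384). Of 9 blood cell marker genes on the array 8 passed the intensity filter, and of 9 markers of nerve, muscle, germ line and fat body 3 did. In the nuclear fraction of control cells 7 of the 8 blood markers, most of which encode secreted or membrane proteins, were higher and 0 lower, where 16.9% and 25.2% of all tested probe sets were, with a median log2 difference of 3.78. In depleted cells 7 were higher and 1, srp, was lower, where 17.9% and 30.9% of all were. With depletion 1 of 8 was lower in the nucleus (Col4a1, -0.90, adjusted p = 0.0164), where 1.83% of all were lower. The nuclear excess of the marker vkg in control cells (log2 difference 5.53, SE 0.43, adjusted p = 8.39e-09) was the 5th highest of all tested probe sets. The part of whatever carries these mRNAs in the nuclear fraction in the results on noncoding RNAs was not tested.

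Most of the noncoding probe sets lay near or below background. The filter was the 40th percentile of all probe sets by their mean over the 12 arrays, which corresponds to a deposited intensity between 199 and 320 on single arrays. Of the 24 probe sets 10 lay above it (41.7%, 9 of 21 genes), against 60% of all probe sets by construction. On single arrays, 4 probe sets exceeded the 40th percentile on all 12 (16.7%, against 32.1% of all probe sets), namely 151494_at of lncRNA:CR42862, lncRNA:CR14310, asRNA:CR43468 and lncRNA:CR43372. Another 4 exceeded it on 0 of 12 arrays (16.7%, against 11.4%), namely lncRNA:CR43882, lncRNA:CR43764 and both probe sets of asRNA:CR43916. Counted by group, 4 probe sets lay above it on all 3 arrays in the control cytoplasm, 7 in the control nucleus, 7 in the depleted cytoplasm and 10 in the depleted nucleus. Of all probe sets 46.6%, 47.2%, 51.4% and 43.7% did so in these groups.

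The 23 control probe sets for mouse, yeast and Bacillus genes gave a second measure of background, with a median intensity of 77 and a highest value between 206 and 573 per array. In at least 1 group, 9 of the 24 probe sets (8 genes) exceeded every such control on all 3 arrays, against 55.8% of all probe sets. On all 12 arrays lncRNA:CR14310 and lncRNA:CR43372 did so. The 14 probe sets below the filter, of 13 genes, had intensities between 4 and 779 with a median of 103. They include asRNA:CR17025, whose RefSeq synonyms name the precursor of the microRNA miR-252, and asRNA:CR11538, which overlaps the larval serum protein gene Lsp2. The others were lncRNA:CR15061, lncRNA:CR9162, lncRNA:CR9284, lncRNA:CR43911, lncRNA:CR32661, lncRNA:CR33963 and asRNA:CR43257. The filter split the pair of probe sets of 1 gene. Of the probe sets of lncRNA:CR31781, 153054_at passed (median intensity 259) and 146388_at did not (median 141).

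**Figure D1:**
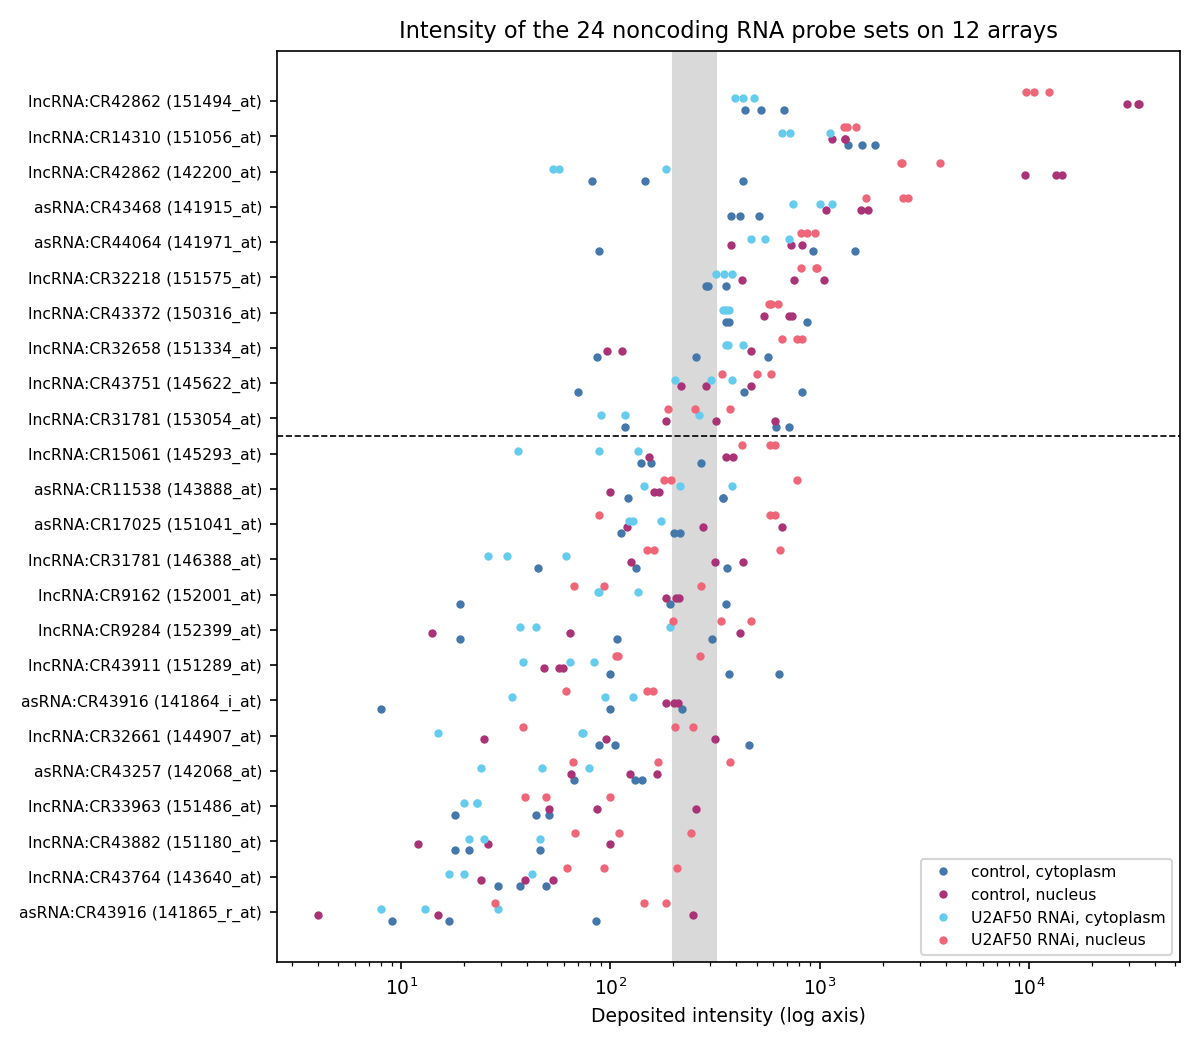
Deposited intensity (log axis) of the 24 probe sets on the 12 arrays, coloured by group, ordered by their mean percentile, with the 10 tested probe sets above the dashed line. The grey band spans the 40th percentiles of the arrays (199 to 320), and every probe set other than those of lncRNA:CR42862 stays at or below 2635.

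lncRNA:CR42862 was the only member called in a comparison of treatments. Its signal in control cells was far higher in the nuclear than in the cytoplasmic fraction, each as a share of that fraction's RNA. After depletion its nuclear signal fell to 35.3% and 26.3% of the control level by its 2 probe sets. That signal still exceeded the cytoplasmic one. The intensities of probe set 151494_at were 33456, 29497 and 33354 in the control nucleus. They were 12449, 9716 and 10620 in the depleted nucleus. All 3 depleted arrays lay below all 3 controls, by a gap several times wider than the spread within either group. The cytoplasmic intensities were 523, 440 and 672 in control cells and 395, 429 and 485 in depleted cells, low and overlapping. Probe set 142200_at gave 13416, 9584 and 14406 in the control nucleus and 2461, 3740 and 2451 in the depleted nucleus. Its cytoplasmic intensities were 82, 147 and 430 in control cells and 53, 57 and 185 in depleted cells, where all 3 lay below the 40th percentile of their arrays. Both probe sets were thus higher in the nucleus than in the cytoplasm and lower in the depleted than in the control nucleus, and the order of the cytoplasmic groups was not resolved by either.

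**Figure D2:**
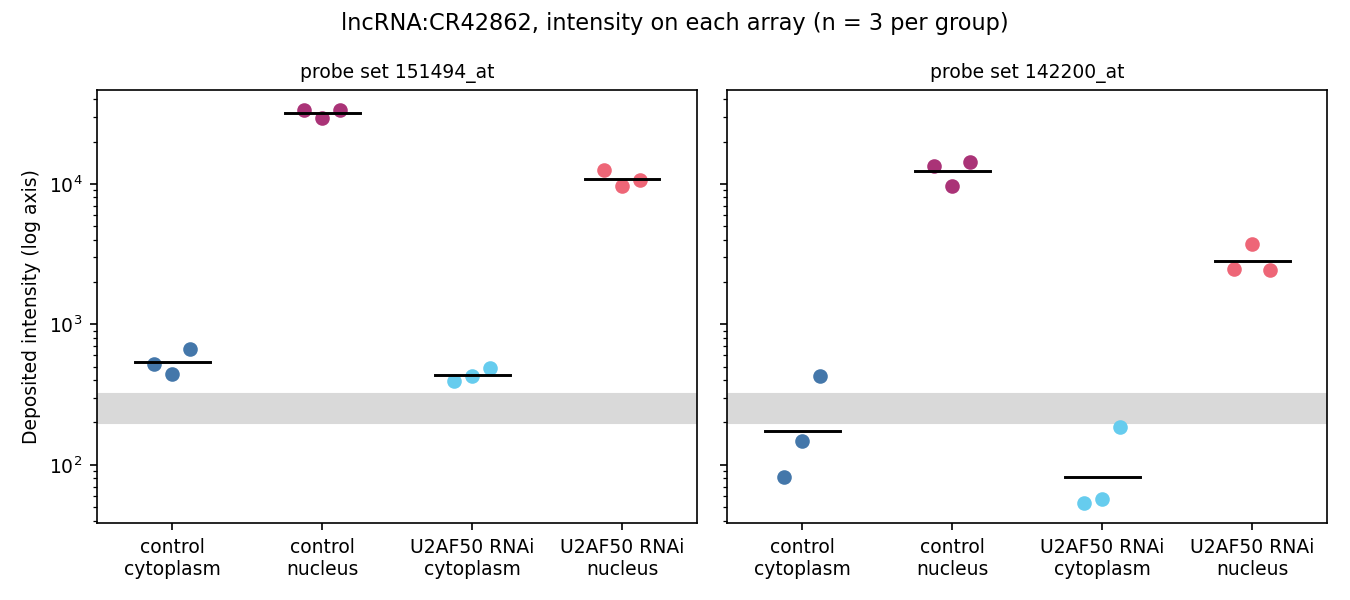
Deposited intensity (log axis) of lncRNA:CR42862 on each array, 1 panel per probe set, with a point per array (n = 3 per group) and a bar at the geometric mean. The nuclear arrays of depleted cells lie below those of control cells in both panels (9716 to 12449 against 29497 to 33456 for 151494_at), and the grey band marks the 40th percentiles of the arrays.

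In the test across all 8379 probe sets above the filter, the nuclear change with depletion was -1.50 on the log2 scale (SE 0.18, limma adjusted p = 1.36e-04) for 151494_at and -1.93 (SE 0.40, adjusted p = 0.0128) for 142200_at. These were the 68th and the 14th lowest of the 8379 changes in that comparison. Of the 10 tested members these 2 were called lower and 0 higher, where 1.83% of all tested probe sets were called lower and 1.58% higher. The call of 151494_at was kept in all 25 alternative settings, with changes between -1.72 and -1.43. That of 142200_at was lost in 2 of 25, without control nucleus replicate 1 (adjusted p = 0.0672) and without control nucleus replicate 3 (adjusted p = 0.0718). The GAPDH 3' to 5' ratio, a measure of RNA integrity and labelling, was 6.19 ± 2.06 (SD, n = 3) in the depleted nucleus and 6.25 ± 1.76 in the control nucleus (exact permutation p = 0.9, 2-sided, where 0.1 is the smallest that 3 against 3 allow). With this ratio as a covariate the changes were -1.50 and -1.94, both past the threshold.

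In the cytoplasm the log2 change of lncRNA:CR42862 with depletion was -0.05 by 151494_at (SE 0.18, adjusted p = 0.9288). That of 142200_at, not called either (adjusted p = 0.7398), has no measured size because both groups lay below background. The nuclear excess was 51.3-fold in control cells by 151494_at (log2 difference 5.68, SE 0.18, adjusted p = 2.62e-13), the third highest of the 8379 differences. In depleted cells it was 18.7-fold (4.23, SE 0.18, adjusted p = 8.09e-12), the 31st highest. By 142200_at the excess has only a lower bound, since both cytoplasmic means lay below the 40th percentile of their arrays, which was taken as the floor. In control cells, where 1 of 3 cytoplasmic arrays lay above it, the excess was at least 28.2-fold (mean log2 level 13.50 in the nucleus, measured mean 8.08 in the cytoplasm, adjusted p = 4.14e-09). In depleted cells, where 0 of 3 did, it was at least 8.65-fold (mean log2 level 11.57 in the nucleus, measured mean 7.75 in the cytoplasm, adjusted p = 4.48e-07). Both adjusted p-values belong to the measured differences, not to these bounds.

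The difference between the fractions' responses, the interaction, was -1.45 (SE 0.26, adjusted p = 0.0306) for 151494_at. For 142200_at it was not called (adjusted p = 0.2594), and with both cytoplasmic groups below background its size was not measured. Of the 10 tested members 1 was called lower and 0 higher, where 0.0955% and 0.0716% of all tested probe sets were. Of the 8 tested blood cell markers 0 were called in the interaction. Their median was -0.79, against -0.11 over all tested probe sets, and vkg had -1.89 (SE 0.61, adjusted p = 0.2229). The call of 151494_at held in 12 of 24 alternatives, with values between -1.69 and -1.30 and the largest adjusted p at 0.1413. It was lost when any 1 of 7 arrays was left out, with adjusted p of 0.1413, 0.0571 and 0.1287 without control nucleus replicates 1, 2 and 3, 0.0585 without control cytoplasm replicate 2, 0.0784 and 0.0988 without U2AF50 cytoplasm replicates 2 and 3, and 0.0820 without U2AF50 nucleus replicate 2. The interaction of 142200_at passed the threshold in 1 of 24 alternatives, without control cytoplasm replicate 3 (adjusted p = 0.0440).

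**Figure D3:**
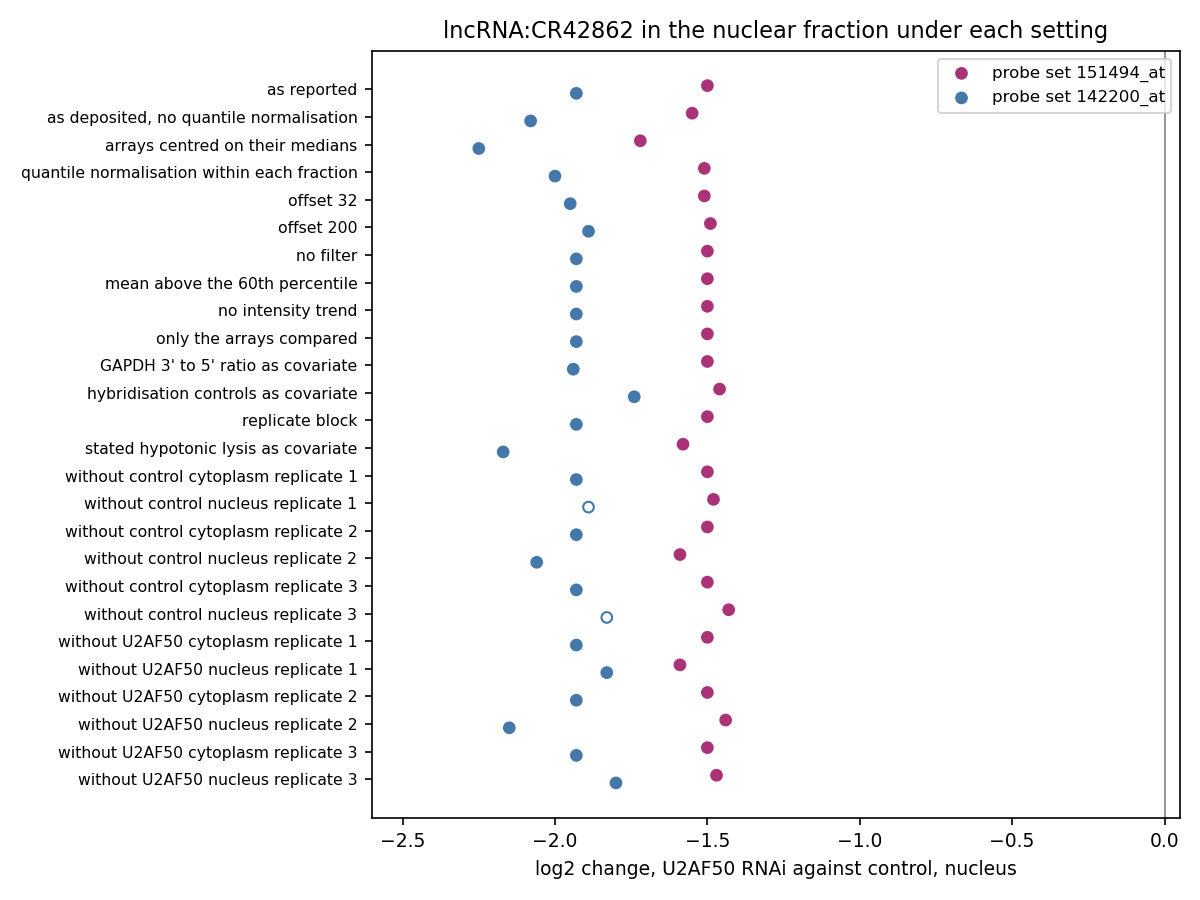
Log2 change of lncRNA:CR42862 between U2AF50 RNAi and control in the nuclear fraction, as reported and under each of 25 alternative settings, for its 2 probe sets. Filled points have an adjusted p under 0.05 and open points do not. The 151494_at values lie between -1.72 and -1.43 and those of 142200_at between -2.25 and -1.74, and the 2 open points belong to 142200_at.

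CG33229, a coding gene that overlaps lncRNA:CR42862 in RefSeq, was not called in the nucleus. Its intensities were 907, 1409 and 1144 in the control cytoplasm and 2215, 2464 and 2658 in the depleted cytoplasm, so it rose there (log2 change 1.01, SE 0.23, adjusted p = 0.0290). In the nucleus they were 1445, 1878 and 1606 in control and 1563, 1276 and 1845 in depleted cells, which overlapped (-0.14, SE 0.23, adjusted p = 0.8192). Its nucleus minus cytoplasm difference was 0.61 in control cells (SE 0.23, adjusted p = 0.0433) and -0.55 in depleted cells (adjusted p = 0.0615). The interaction was -1.16 (SE 0.33, adjusted p = 0.1677), of the same sign as that of lncRNA:CR42862 and not called. Among the other coding genes within 10 kb, added after values were seen, the chromatin remodelling gene E(bx) had a nuclear change of -0.80 (adjusted p = 0.1718), CG13877 of 0.28 (adjusted p = 0.6852) and the exonuclease gene Dis3l2 of 0.11 (adjusted p = 0.9193). The ion channel gene pyx lay below the filter, and CG42846, CG34454, CG34453 and Kaz1-ORFB had no probe set annotated to them singly. None of the 4 tested neighbours (CG33229, E(bx), CG13877 and Dis3l2) was called in the nucleus. The difference between them and lncRNA:CR42862 was not itself tested. Whether the probes of lncRNA:CR42862 also take up signal of CG33229 was not tested.

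asRNA:CR43468 was the other member with a nuclear excess of more than 3-fold in control cells. Its intensities were 513, 378 and 414 in the control cytoplasm and 1696, 1066 and 1583 in the control nucleus, without overlap (log2 difference 1.61, SE 0.27, 3.04-fold, adjusted p = 1.10e-04). In depleted cells they were 744, 1002 and 1143 in the cytoplasm and 2635, 1668 and 2505 in the nucleus, again without overlap (1.17, SE 0.27, 2.25-fold, adjusted p = 0.0019). That call was lost with the GAPDH ratio as a covariate (0.93, adjusted p = 0.0775). All 3 depleted cytoplasmic arrays also lay above all 3 controls, but this change of 1.03 (SE 0.27) had an adjusted p of 0.0592. It passed in 4 of 25 alternatives, namely array medians set equal (1.22, adjusted p = 0.0282), quantiles within each fraction (1.12, adjusted p = 0.0397), the filter at the 60th percentile (1.03, adjusted p = 0.0393) and the fit without U2AF50 nucleus replicate 2 (1.03, adjusted p = 0.0399). In the nucleus the change was 0.59 (SE 0.27, adjusted p = 0.2925).

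The gene overlaps 3 coding genes, Nmda1, Lfg and AspRS, of which Nmda1 alone has a probe set annotated to it singly. Nmda1 gave 976, 1137 and 1512 in the control cytoplasm, 19096, 15045 and 14631 in the control nucleus, 2353, 3333 and 3661 in the depleted cytoplasm and 16509, 13067 and 14476 in the depleted nucleus. Its nuclear excess was 3.55 (SE 0.19, adjusted p = 5.06e-11) in control and 2.30 (SE 0.19, adjusted p = 1.76e-08) in depleted cells, and it rose in the depleted cytoplasm (1.28, SE 0.19, adjusted p = 0.0010). No source used here gives the strand or exact target of the probes, so signal of asRNA:CR43468 and of genes that overlap it cannot be told apart. The strand and exact target are likewise not given for probes of lncRNA:CR42862 (overlapping CG33229), lncRNA:CR32218 (Mi-2 and Su(Tpl)), lncRNA:CR32658 (Ten-a) and asRNA:CR44064 (CG7420). Whether these probes take up signal of the overlapping genes was not tested.

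**Figure D4:**
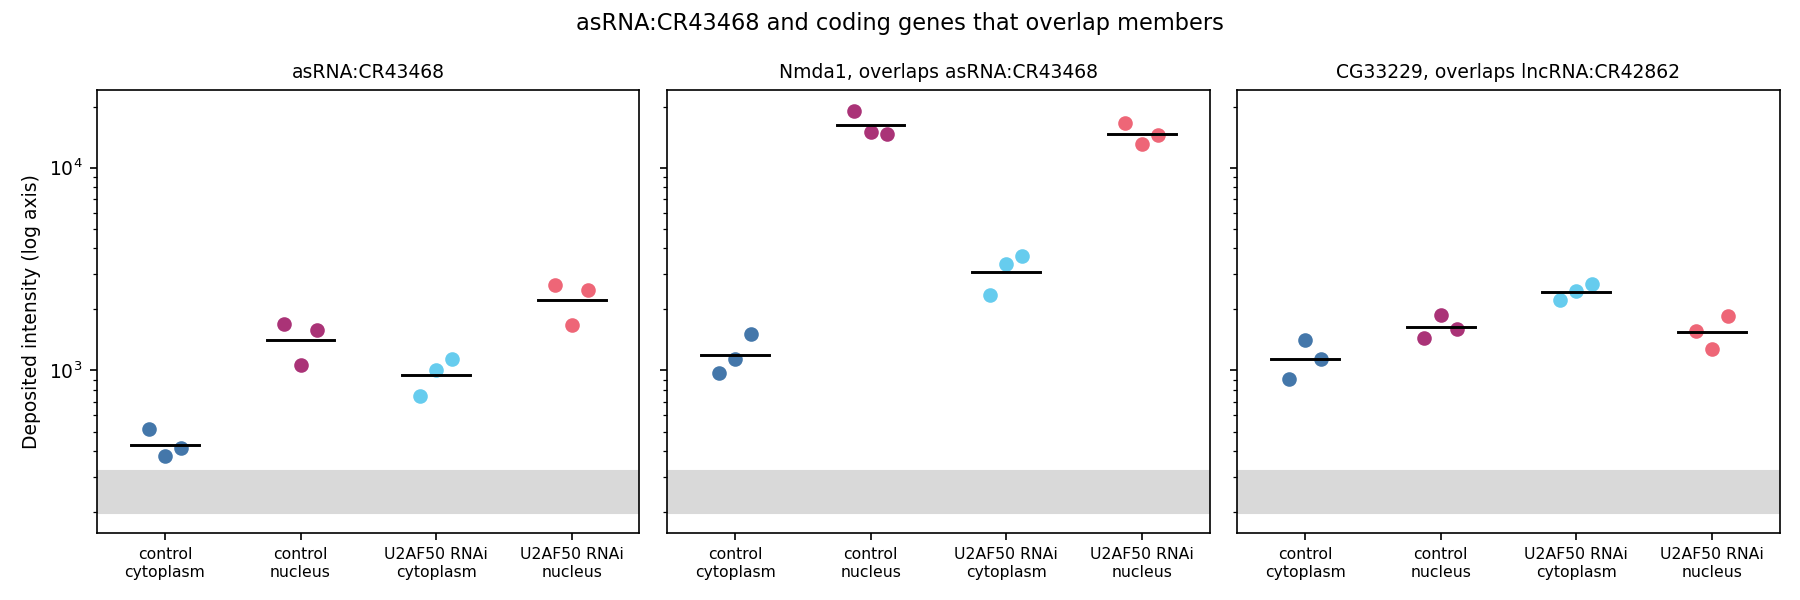
Deposited intensity (log axis) per array of asRNA:CR43468, of Nmda1, which overlaps it, and of CG33229, which overlaps lncRNA:CR42862 (n = 3 per group, bars at the geometric mean, grey band at the arrays' 40th percentiles). asRNA:CR43468 and Nmda1 are both lowest in the control cytoplasm, and CG33229 is highest in the depleted cytoplasm (2215 to 2658).

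lncRNA:CR32218, which overlaps the chromatin remodeller gene Mi-2 and the elongation factor gene Su(Tpl), was also higher in the nuclear fractions. Its intensities were 291, 286 and 357 in the control cytoplasm and 425, 753 and 1043 in the control nucleus (1.07, SE 0.36, 2.10-fold, adjusted p = 0.0240). In depleted cells they were 321, 380 and 350 in the cytoplasm and 963, 972 and 816 in the nucleus (0.93, SE 0.36, 1.91-fold, adjusted p = 0.0425). The groups did not overlap in either treatment, yet these calls were fragile. The first was lost without control cytoplasm replicate 1 or 2 or control nucleus replicate 2 or 3 (adjusted p between 0.0576 and 0.1337), in the fit on only the arrays compared (adjusted p = 0.0612) and with the stated lysis as a covariate, added after values were seen (0.84, adjusted p = 0.0779). The second was lost without any 1 of the 6 depleted arrays (adjusted p between 0.0551 and 0.1100), with array medians set equal (0.81, adjusted p = 0.0607), with no filter (0.93, adjusted p = 0.0632) and with the GAPDH ratio (1.08, adjusted p = 0.1293) or the hybridisation controls (1.04, adjusted p = 0.1546) as a covariate. Of the overlapping genes, Mi-2 was lower in the nucleus under both treatments (-0.74 and -0.45, SE 0.15, adjusted p = 5.64e-04 and 0.0188), and Su(Tpl) was not called, with differences of 0.01 and 0.25 (adjusted p = 0.9896 and 0.5913).

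lncRNA:CR14310, whose nearest coding gene is the eye transcription factor gene gl, had intensities between 658 and 1831. They were 1831, 1587 and 1368 in the control cytoplasm and 1143, 1328 and 1320 in the control nucleus (-0.24, SE 0.24, adjusted p = 0.4655). In the depleted cytoplasm they were 658, 1124 and 721, all below the controls, but the change of -0.84 (SE 0.24) did not pass (adjusted p = 0.0848), nor did it in any of 25 alternatives. In the depleted nucleus they were 1495, 1344 and 1312 (change 0.06, adjusted p = 0.9283). The nuclear fraction of depleted cells was called higher than their cytoplasm (0.66, SE 0.24, adjusted p = 0.0314). This call was lost with arrays centred on their medians (0.33, adjusted p = 0.2741), with the GAPDH ratio (0.36, adjusted p = 0.4395) or the hybridisation controls (0.32, adjusted p = 0.4934) as a covariate, in the fit on only the arrays compared (0.66, adjusted p = 0.0559), and without U2AF50 cytoplasm replicate 1 or 3 (adjusted p = 0.1252 and 0.1038) or U2AF50 nucleus replicate 1 (adjusted p = 0.0810). gl itself lay below the filter, with intensities up to 108.

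The remaining 5 tested members, asRNA:CR44064, lncRNA:CR43372, lncRNA:CR32658, lncRNA:CR43751 and lncRNA:CR31781, were called in 0 of the 5 comparisons. The nearest to a change was lncRNA:CR32658, which overlaps the teneurin gene Ten-a. It gave 114, 96 and 468 in the control nucleus and 658, 782 and 820 in the depleted nucleus, without overlap, and its change of 1.48 (SE 0.50) had an adjusted p of 0.1292. With 1 of 3 control arrays above the 40th percentile, taking that percentile as the floor gave a lower bound of 1.90-fold. The mean log2 level was 9.62 in depleted and a measured 8.14 in control cells. The bound carries no standard error, and the change was not called. Ten-a itself moved the other way without a call (-1.37, SE 0.41, adjusted p = 0.0832). asRNA:CR44064 varied widely within the control cytoplasm, with 1473, 88 and 930. lncRNA:CR43372 gave 541, 710 and 741 in the control nucleus and 632, 584 and 574 in the depleted nucleus, a change of -0.31 (SE 0.35, adjusted p = 0.7152). lncRNA:CR43751 gave 819, 434 and 70 in the control cytoplasm and 204, 303 and 379 in the depleted cytoplasm, which overlapped (0.06, SE 0.51). lncRNA:CR31781 gave 710, 616 and 118 in the control cytoplasm and 265, 117 and 90 in the depleted cytoplasm, also overlapping (adjusted p = 0.5126, with 1 of 3 depleted arrays above the 40th percentile). For these 5 the standard errors lay between 0.35 and 0.57 in the comparisons of 2 groups. In simulated arrays of this size, 38% of log2 changes of 1 between treatments in the nucleus were recovered, so a change of that size could go uncalled. That share is an average over probe sets drawn from all those tested, and recovery at the spreads of these 5 members was not simulated.

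**Figure D5:**
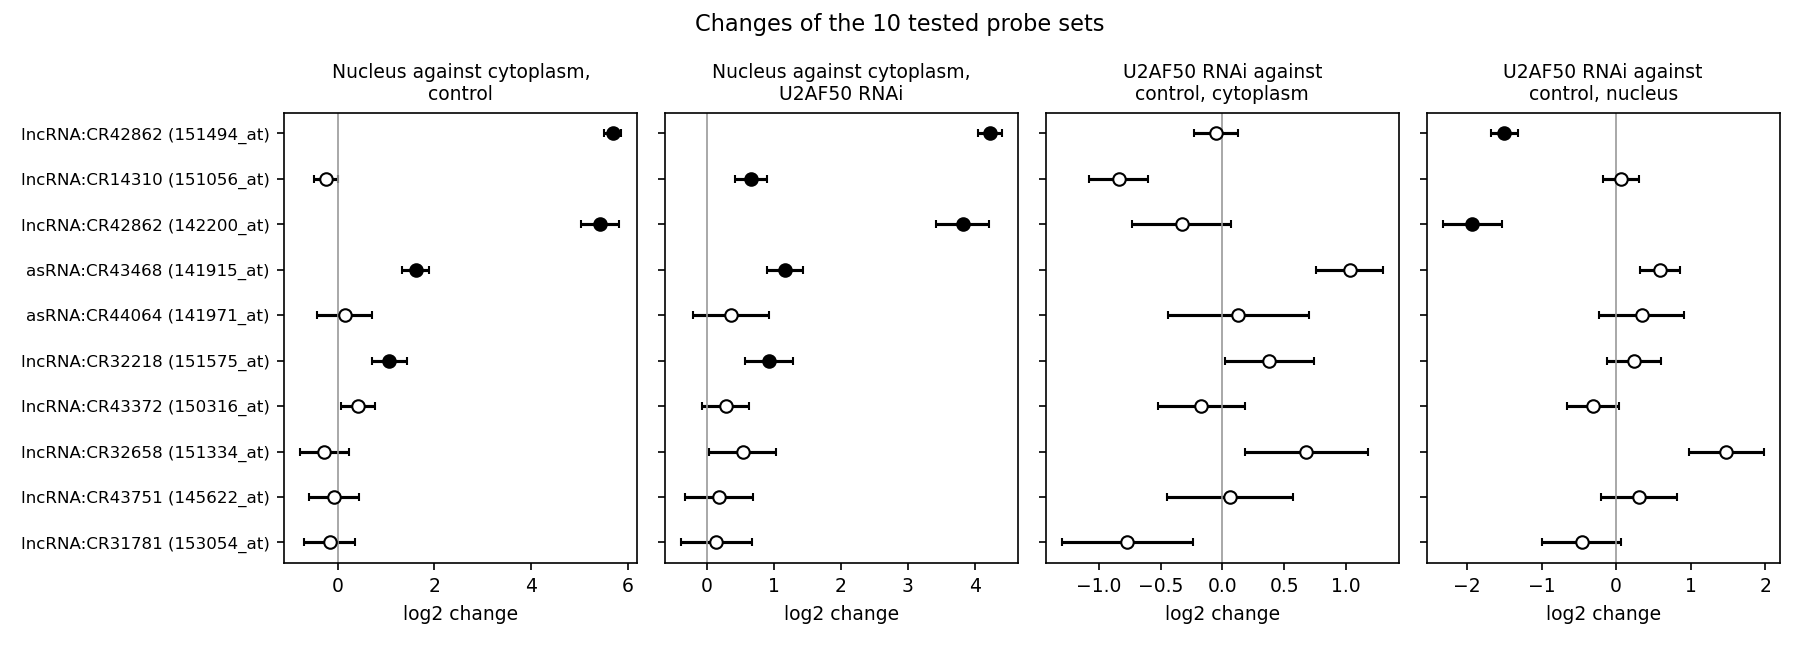
Log2 change of the 10 tested probe sets in the 4 comparisons of 2 groups, with limma standard errors (n = 3 arrays per group, horizontal scales differ between panels). Filled points have an adjusted p under 0.05, and only the 2 probe sets of lncRNA:CR42862 are filled in a comparison of treatments.

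Counted over the class, 4 of the 10 tested probe sets were higher in the nuclear fraction of control cells and 0 lower, where 16.9% of all tested probe sets were higher and 25.2% lower. The median difference was 0.29, against -0.27 over all tested probe sets. In depleted cells 5 of 10 were higher and 0 lower, where 17.9% of all were higher and 30.9% lower, with a median of 0.60 against -0.29. Without lncRNA:CR42862 the counts were 2 and 3 of 8, and the medians 0.04 and 0.45. With depletion 0 of 10 were called in the cytoplasm, where 1.77% of all were called higher and 0.8% lower. There 2 members had an unadjusted p under 0.05 in limma. The median change was 0.01, against 0.04 over all tested probe sets. In the nucleus the median was 0.15, against -0.05 over all tested probe sets, although both called probe sets fell.

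The filter can favour members that are high in 1 group, so the fit was repeated on all 13966 probe sets with all 24 members. Then 4 were called higher and 1 lower in the control nucleus, where 10.4% and 14.3% of all probe sets were, and the median difference was 0.23 against -0.13. The lower one was lncRNA:CR43911, whose control cytoplasm held 636, 368 and 100 and whose control nucleus 57, 48 and 59, with 0 of 3 nuclear arrays above the 40th percentile. Its control cytoplasm, with 2 of 3 arrays above that percentile, had a mean log2 level of 8.64, near the floor of 8.46. The cytoplasmic level was at least 1.13-fold higher than the nuclear one (measured nuclear mean 7.23). The limma adjusted p of 0.0165 belongs to the measured difference, not to this bound. In depleted cells 5 of 24 were higher, where 11.2% of all were, with a median of 0.52 against -0.03, and they included lncRNA:CR15061 (adjusted p = 0.0231) but not lncRNA:CR32218 (adjusted p = 0.0632). Of all probe sets 17.9% were lower there, and 0 members. lncRNA:CR15061 gave 36, 88 and 136 in the depleted cytoplasm and 578, 424 and 612 in the depleted nucleus. With 0 of 3 cytoplasmic arrays above the 40th percentile, its nuclear level was at least 1.61-fold higher (mean log2 level 9.14, measured cytoplasmic mean 7.69). With depletion 0 of 24 were called in the cytoplasm, where 0.644% of all were higher and 0.251% lower (3 members had an unadjusted p under 0.05 in limma). In the nucleus both probe sets of lncRNA:CR42862 were lower and 0 members higher, where 0.723% and 0.738% of all were. In the interaction 0 of 24 were called, where 0.0286% of all were higher and 0.0215% lower (4 members had an unadjusted p under 0.05 in limma).

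Counts of members whose arrays do not overlap between groups, which need no filter, depended on the scale. On the normalised log2 scale, 5 of 24 members lay higher on all 3 nuclear than on all 3 cytoplasmic arrays of control cells and 1 lower, where 14.4% and 22.3% of all probe sets did. In depleted cells 10 lay higher and 0 lower, where 17.4% and 25.2% of all did. Between treatments 1 member lay higher and 1 lower in the depleted cytoplasm, where 11.6% and 10.4% of all did. In the depleted nucleus 3 lay higher and 4 lower, where 7.51% and 8.41% of all did. On the deposited intensities 4 lay higher and 2 lower in the control nucleus, where 13.3% and 24.1% of all did. In depleted cells 15 lay higher in the nucleus and 0 lower, where 28.4% and 21.8% of all did. In the depleted cytoplasm 1 lay above the controls and 4 below, where 9.39% and 17.4% of all did. In the depleted nucleus 5 lay above and 3 below, where 10.6% and 7.0% of all did, so the balance there turned with the scale. In depleted cells the hybridisation controls differed in the same direction, with a mean log2 intensity of 14.2 ± 0.886 (SD, n = 3) in the nucleus and 12.3 ± 0.214 in the cytoplasm (exact permutation p = 0.1), as did the GAPDH ratio (6.19 ± 2.06 against 2.90 ± 0.656, exact permutation p = 0.1), and their part in this comparison was not tested beyond the covariate fits.

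Proteins that work with the best known nuclear noncoding RNAs of the fly were measured as mRNA. Of the 5 genes of the MSL complex, which carries the roX RNAs, 3 passed the filter, and 0 were called with depletion in either fraction, where the background of higher and lower calls was 1.77% and 0.8% in the cytoplasm and 1.58% and 1.83% in the nucleus, so a count of 0 is close to the background. In depleted cells msl-1 (-1.56, adjusted p = 0.0055) and the acetyltransferase gene mof (-1.57, adjusted p = 0.0100) were lower in the nuclear fraction, where 30.9% of all were, and in control cells 0 of the 3 were called. Of 10 listed genes for proteins of omega speckles and related nuclear RNA-binding proteins 6 were tested, and 0 were called with depletion, against the same background. In control cells the hnRNP genes Hrb87F (-1.18, adjusted p = 3.19e-04) and Hrb98DE (-0.83, adjusted p = 5.75e-04) were lower in the nuclear fraction and Saf-B (1.08, adjusted p = 8.69e-04) was higher, where 25.2% and 16.9% of all were. In depleted cells 3 of the 6 were lower and 0 higher, where 30.9% and 17.9% of all were.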

How the data were processed

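RNA from the 12 samples was hybridised to 1-colour Affymetrix arrays. The authors deposited linear intensities, 1 per probe set and array, scaled so that each array's mean without its lowest and highest 2% is 1000, as read from the values. No source used here names the image software or probe summary. Intensities were turned into log2(value + 94.7), the 20th percentile of all values, and quantile normalised after 44 control probe sets were left out. Changes on this scale understate those of weak genes. The 8379 probe sets with a mean above the 40th percentile entered 1 linear model of the 4 groups in limma (version 3.58.1, R version 4.3.3; lmFit and eBayes with trend, 8 residual degrees of freedom), with Benjamini-Hochberg adjustment over all of them and a threshold of 0.05. In simulated arrays, 76% of log2 changes of 2 and 38% of changes of 1 between treatments in the nucleus were recovered. Names came from the platform annotation and RefSeq (Release 6 assembly) by gene identifier. Overlaps and distances were computed from the RefSeq coordinates, and no coordinates came from the deposited files. The members, lists and tests were chosen with earlier results of these data known. All members could be named, with all 12 values for those called, and neighbours were overlapping coding genes or the nearest within 10 kb. Alternatives were 13 other settings and leaving out each of the 12 arrays.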

Additional observations from a re-analysis of the deposited data

Results flagged for a closer look

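The response of lncRNA:CR42862 to U2AF50 RNAi differed between the fractions by the test of the difference itself, with an interaction of -1.45 on the log2 scale for probe set 151494_at (SE 0.26, limma adjusted p = 0.0306). The nuclear change was -1.50 and the cytoplasmic change -0.05. The call was lost in 12 of 24 alternatives, among them 7 that each leave out 1 array and the fits with the GAPDH ratio (adjusted p = 0.1278) or the hybridisation controls (adjusted p = 0.1405) as a covariate. The gene's other probe set, 142200_at, was not called (adjusted p = 0.2594). The groups have 3 arrays each, too few for a test of single outlying samples.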

How the results depend on the processing

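The nuclear fall of lncRNA:CR42862 and its nuclear excess under both treatments kept their direction in every one of the 25 alternatives, and the call of 151494_at in all of them. Counts of called members moved by more than 1.5 times as follows. Nucleus against cytoplasm in depleted cells gave 5, and 3 with arrays centred on their medians, 2 with the GAPDH ratio as a covariate and 3 with the hybridisation controls as one. The cytoplasmic comparison of treatments gave 0, and 1, asRNA:CR43468, with centring on medians, with quantiles within each fraction and with the filter at the 60th percentile. The interaction gave 1, and 0 with no filter, with no intensity trend, with either covariate and with the stated lysis as a covariate, which was chosen after seeing the data. Leaving out 1 array gave counts of 3 to 4 and 3 to 5 for the nucleus under control and U2AF50 RNAi, 0 to 1 in the cytoplasm, 1 to 2 in the nucleus and 0 to 2 for the interaction. Above background lay 10 of 24 probe sets, 5 at the 60th percentile, 10 by all 3 arrays of a group above the 40th, and 9 against the foreign controls, a measure chosen after seeing the data. With the replicate block the counts were 4, 5, 0, 2 and 1, as without it. Samples of the same number did not deviate together (18 pairs, correlation between -0.09 and 0.14), so the numbers were not taken as pairs. Signs turned only for changes that were never called. lncRNA:CR14310 in the nucleus was -0.04 with median centring and -0.02 with the hybridisation controls, and lncRNA:CR32218 was -0.07 in the cytoplasm and 0.09 in the interaction with the lysis covariate and 0.21 in the interaction as deposited. Without single arrays, the cytoplasmic changes of lncRNA:CR42862 ranged from -0.15 to 0.13 (151494_at) and from -0.74 to 0.19 (142200_at), the nuclear changes of lncRNA:CR14310 from -0.01 to 0.10 and of lncRNA:CR32218 from -0.06 to 0.52, and the interaction of lncRNA:CR32218 from -0.44 to 0.14. The causes of these moves were not tested. The median of all tested probe sets moved from 0.04 to 0.21 in the cytoplasm, from -0.29 to -0.52 for the nucleus in depleted cells and from -0.11 to -0.38 in the interaction with centring on medians. The fit on only the arrays compared was not run for the interaction, which uses all 12.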

Other observations

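1 further probe set belongs to a gene that RefSeq types as a long noncoding RNA without the prefix in its symbol, the snoRNA host gene Uhg1. Its intensities were 54, 64 and 227 in the control cytoplasm, 18, 28 and 14 in the control nucleus, 18, 41 and 13 in the depleted cytoplasm and 13, 118 and 48 in the depleted nucleus, all below the 40th percentile of their arrays.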
